A study of Mus musculus with 10 samples.

Results

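Transcripts of 10 enzymes of mitochondrial fatty acid beta-oxidation were examined in brown adipose tissue of mice labelled Sirt3 knockout (KO) and wild type (WT). The enzymes were the acyl-CoA dehydrogenases Acadvl, Acadl, Acadm and Acads, the hydratase Echs1, the dehydrogenase Hadh, the trifunctional protein subunits Hadha and Hadhb, the isomerase Eci1 and the electron acceptor Etfdh. Every probe set that the platform annotation gives to one of these genes alone was taken, which gave 16 probe sets, and all 10 genes were measured among 18193 genes on the array. The KO group held 5 mice and the WT group 5 mice, all untreated littermates about 1 year old on a 129 background, with 1 array per mouse. The sources used here name neither the deleted part of Sirt3 nor the tissues that lack it.

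Beta-oxidation shortens fatty acyl-CoA in the mitochondrial matrix by repeated rounds of dehydrogenation, hydration, a further dehydrogenation and thiolytic cleavage. Acadvl and the trifunctional protein, which act on longer chains, are bound to the inner membrane, while Acadl and the enzymes of medium and short chains are soluble in the matrix. The acyl-CoA dehydrogenases pass their electrons through the flavoprotein ETF and Etfdh to ubiquinone. Brown fat relies on this pathway to fuel heat production, and several of its enzymes, the long-chain acyl-CoA dehydrogenase among them, are known targets of deacetylation by SIRT3. The arrays read transcripts and not acetylation.

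Values are log2 signals from RMA, which subtracts background, brings all arrays to one distribution and combines the probes of each set into a single value. A change shared by most transcripts would therefore not be visible. Array medians lay between 5.58 and 5.61. The Sirt3 probe set was not lower in the arrays labelled KO. It was at 10.39, 10.29, 10.40, 10.22 and 10.31 in KO 1 to KO 5, against 10.10, 10.28, 10.19, 10.07 and 10.03 in WT 1 to WT 5. Its KO minus WT difference was 0.19 log2 units (SE 0.061), with an unadjusted p of 0.0096 and an adjusted p of 0.914 in limma. All directions below therefore refer to labels that this probe set does not check. Skeletal muscle transcripts differed widely between arrays: the mean of 21 muscle genes was 5.60, 10.52, 5.37, 10.58 and 9.54 in KO 1 to KO 5, against 10.67, 11.47, 10.58, 8.999 and 7.24 in WT 1 to WT 5. The 3' minus 5' signal of the Pcx control transcript, a sign of RNA quality, lay between 2.77 and 2.95 in KO arrays and between 2.96 and 3.44 in WT arrays, without overlap. The same measure overlapped between groups in the other 4 control transcripts, with Actb at 0.50 to 0.77 in KO arrays, against 0.33 to 0.80 in WT arrays. The part of muscle RNA and RNA quality in the results was not tested except where values are given below. The brown adipocyte marker Ucp1 was bright in every array, from 13.96 to 14.19 in KO and from 14.09 to 14.28 in WT.

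The upstream sequence is printed for the member pair with a shared start region and for Eci1 and the 3 members whose signals varied with it (Acadl, Acadm and Echs1), both described below. In RefSeq's promoter table (GRCm38.p6), which held all 10 members, Hadha and Hadhb start on opposite strands of chromosome 5, separated by 272 bases. The first line below is the stretch between both starts on the Hadhb strand (chr5:30154981-30155252), and the others are the 250 bases before the starts of Eci1 (plus strand, chr17:24426433-24426682), Acadl (minus strand, chr1:66863310-66863559), Acadm (minus strand, chr3:153944644-153944893) and Echs1 (minus strand, chr7:140116422-140116671), each written 5′ to 3′ on the strand of its gene. Capitals mark matches on either strand to the GC box GGGCGG or to the nuclear receptor hexamer AGGTCA, which PPAR and ERR receptors are known to bind.
Hadha to Hadhb: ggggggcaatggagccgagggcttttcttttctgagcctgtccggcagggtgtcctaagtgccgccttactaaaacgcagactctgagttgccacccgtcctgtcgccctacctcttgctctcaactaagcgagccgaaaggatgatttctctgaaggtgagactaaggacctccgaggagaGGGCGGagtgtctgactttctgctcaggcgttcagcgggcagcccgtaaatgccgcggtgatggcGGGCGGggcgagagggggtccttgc
Eci1: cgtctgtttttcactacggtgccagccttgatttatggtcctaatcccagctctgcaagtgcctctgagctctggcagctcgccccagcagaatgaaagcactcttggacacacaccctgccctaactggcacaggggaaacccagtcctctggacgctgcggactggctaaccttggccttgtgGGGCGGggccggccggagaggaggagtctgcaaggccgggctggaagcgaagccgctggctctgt
Acadl: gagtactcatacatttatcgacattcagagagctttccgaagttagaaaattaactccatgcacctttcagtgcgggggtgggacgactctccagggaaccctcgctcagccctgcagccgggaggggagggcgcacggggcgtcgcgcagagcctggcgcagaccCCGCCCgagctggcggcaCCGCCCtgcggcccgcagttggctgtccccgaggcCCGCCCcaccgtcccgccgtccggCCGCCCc
Acadm: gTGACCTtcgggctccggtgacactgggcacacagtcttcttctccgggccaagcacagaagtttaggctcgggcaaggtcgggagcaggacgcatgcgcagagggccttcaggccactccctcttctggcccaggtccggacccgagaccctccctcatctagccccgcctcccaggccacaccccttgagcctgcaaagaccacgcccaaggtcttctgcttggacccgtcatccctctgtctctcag
Echs1: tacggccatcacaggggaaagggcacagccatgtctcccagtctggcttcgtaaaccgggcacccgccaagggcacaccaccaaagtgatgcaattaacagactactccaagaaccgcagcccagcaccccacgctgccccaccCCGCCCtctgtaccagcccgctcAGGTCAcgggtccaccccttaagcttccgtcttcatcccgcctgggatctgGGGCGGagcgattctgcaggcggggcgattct
GC boxes stood on either strand in 8 of the 10 member windows, which run from 250 bases before to 50 after each start, and in 35.7% of all 32851 promoter windows of that length. The Hadha and Hadhb windows share 228 bases, and with both counted once it was 7 of 9. The hexamer stood in the windows of 3 members (Acadvl, Acadm and Echs1), against 16.3% of all windows. No member window held the direct repeat DR1 (the hexamer, any base N, the hexamer), found in 0.0396% of all windows, or TCAAGGTCA, found in 0.423%. The hexamer is part of both longer motifs. A match is only a match of letters, and the missing ones say nothing about sites outside these windows.

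Beta-oxidation transcripts differed little between genotypes. The KO minus WT differences of the 10 genes ran from -0.18 for Eci1 to 0.02 log2 units for Hadha, with 7 lower and 3 higher, and their median was -0.042, beside -0.013 over all genes. In limma's fit over all genes, 0 members had an adjusted p under 0.05, 0 an unadjusted p under 0.05, and 0 had groups that did not overlap. The background was 0% of 18193 genes with an adjusted p under 0.05, 4.68% with an unadjusted p under 0.05 and 0.627% with groups that did not overlap, so these counts do not set the members apart. Leaving out WT 2 raised the share of all genes with an unadjusted p under 0.05 to 7.79%. The unadjusted count of members depends on the setting: over 23 alternatives Etfdh was under 0.05 in 5, with a lowest p of 0.023 without WT 1, and Eci1 in 3, with a lowest p of 0.0018 with muscle transcript as a covariate. The other 8 members stayed above 0.05 in all 23. Of all genes 56.1% were lower in KO. In whole tissue, fewer brown adipocytes and less transcript per cell cannot be told apart.

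**Figure D1:**
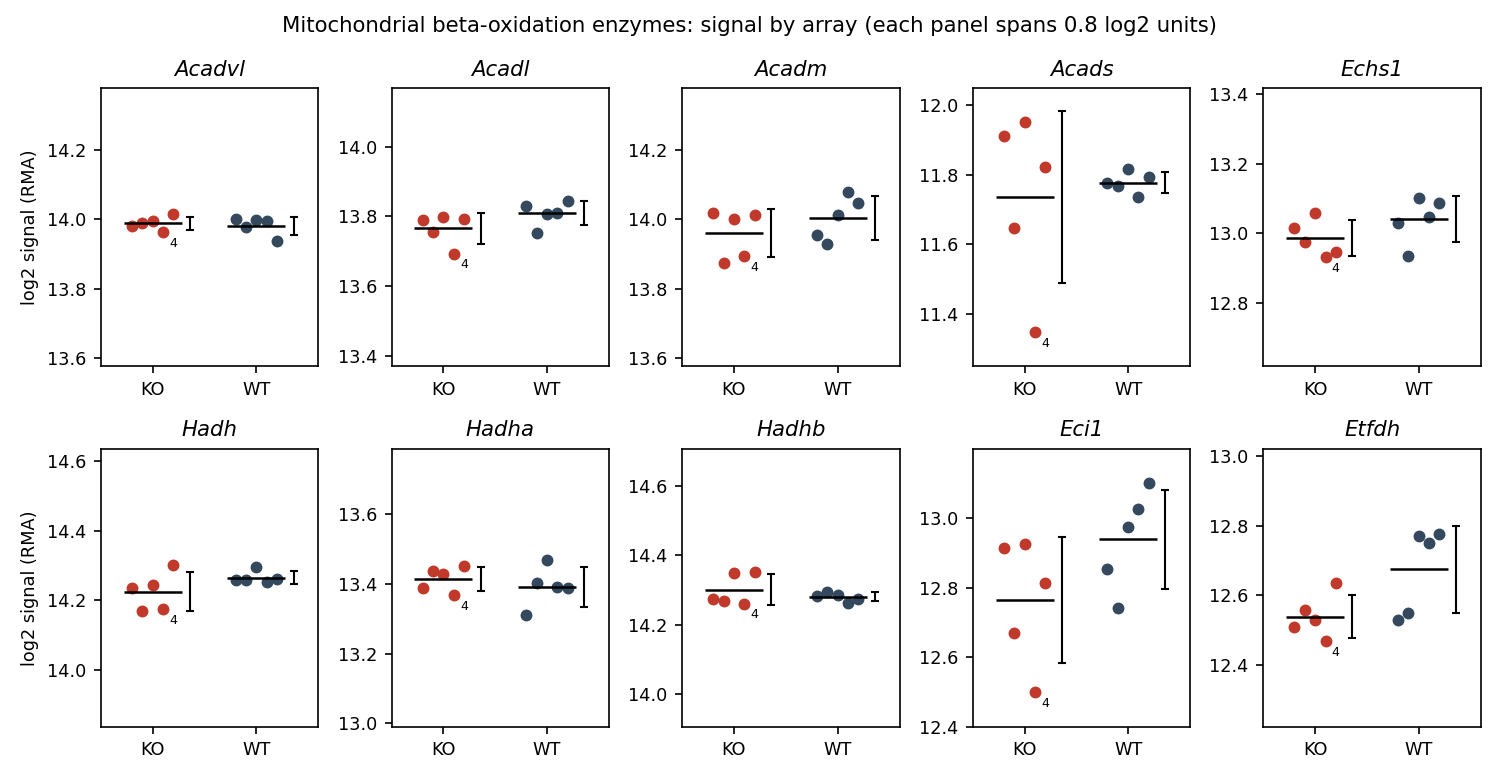
Log2 signal (RMA) of each member gene in arrays labelled KO (left, n = 5) and WT (right, n = 5), 1 point per mouse in replicate order, with the group mean as a line and the SD as a bar beside it; all panels span the same height, and the number 4 marks KO 4. The groups overlap in all 10 genes, KO 4 is the lowest KO array in 8 of them, and Acads in KO and Eci1 in both groups are the most spread.

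Acadvl, the very-long-chain acyl-CoA dehydrogenase of the inner membrane, had log2 signals of 13.98, 13.99, 13.99, 13.96 and 14.02 in KO 1 to KO 5, against 14.00, 13.98, 14.00, 13.99 and 13.94 in WT 1 to WT 5. Its arrays were nearly identical in both groups, with an SD within groups of 0.023, among the lowest 0.055% of all genes. The difference was 0.01 ± 0.041 log2 units (SE, 95% interval -0.08 to 0.10), and its sign turned without KO 5 (-0.00018) or without WT 5 (-0.0044).

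Acadl, the long-chain enzyme, had 13.79, 13.75, 13.80, 13.69 and 13.79 in KO 1 to KO 5, against 13.83, 13.75, 13.81, 13.81 and 13.84 in WT 1 to WT 5. All 5 KO values were below the WT mean, while WT 2 lay inside the KO range. The difference was -0.04 ± 0.045 (95% interval -0.14 to 0.06), and the adjusted p of limma was 0.925. Its other probe set was dim, at 5.33 on average over the KO and WT arrays, and gave -0.11 in the fit over probe sets.

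Acadm, the medium-chain enzyme, had 14.02, 13.88, 14.00, 13.89 and 14.01 in KO 1 to KO 5, against 13.95, 13.93, 14.01, 14.08 and 14.05 in WT 1 to WT 5. The groups overlapped broadly, with a difference of -0.04 ± 0.053. Acads, the short-chain enzyme, had 11.91, 11.65, 11.95, 11.35 and 11.82 in KO 1 to KO 5, against 11.78, 11.77, 11.82, 11.74 and 11.79 in WT 1 to WT 5. The KO arrays of Acads spread over 0.60 log2 units and enclosed the WT arrays, which spread over 0.079, so that the SD was 0.25 in KO and 0.029 in WT; this gap in spread was chosen after the values were seen and has no test. The difference of the Acads means was -0.04 ± 0.10 and turned to 0.06 ± 0.067 without KO 4.

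Echs1, the short-chain enoyl-CoA hydratase, had 13.02, 12.97, 13.06, 12.93 and 12.95 in KO 1 to KO 5, against 13.03, 12.93, 13.10, 13.05 and 13.09 in WT 1 to WT 5. The groups overlapped nearly throughout, with a difference of -0.05 ± 0.051. Hadh, the 3-hydroxyacyl-CoA dehydrogenase of medium and short chains, had 14.24, 14.17, 14.24, 14.17 and 14.30 in KO 1 to KO 5, against 14.26, 14.26, 14.30, 14.25 and 14.26 in WT 1 to WT 5. In Hadh 3 probe sets disagreed in sign: the brightest, used here, gave -0.04 ± 0.045, the second -0.018 and the dimmest, at 7.93 on average, 0.046.

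Hadha carries the long-chain hydratase and dehydrogenase activities of the trifunctional protein, and Hadhb its thiolase. Hadha had 13.39, 13.44, 13.43, 13.37 and 13.45 in KO 1 to KO 5, against 13.31, 13.40, 13.47, 13.39 and 13.39 in WT 1 to WT 5. Hadhb had 14.28, 14.27, 14.35, 14.26 and 14.35 in KO 1 to KO 5, against 14.28, 14.30, 14.29, 14.26 and 14.27 in WT 1 to WT 5. Both were slightly higher on average in KO, by 0.02 ± 0.047 for Hadha and 0.02 ± 0.043 for Hadhb, within the spread of the arrays. Hadha was at 0.0020 without WT 1 and Hadhb at 0.0076 without KO 5. The 3 probe sets of Hadhb gave 0.021, 0.043 and 0.18, from the brightest to the dimmest, and none passed.

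The balance of both subunits was read within each array as the Hadha signal minus the Hadhb signal. It averaged -0.89 ± 0.033 (SD, n = 5) in KO and -0.89 ± 0.056 (SD, n = 5) in WT, and the difference of 0.0019 was smaller than either SD, with an exact two-sided permutation p of 0.96. Its sign turned without KO 2 (-0.012) or without WT 1 (-0.019), and averaging every probe set of a gene gave -0.057. The value itself compares 2 different probe sets and is not a ratio of transcript amounts.

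Eci1, the delta3-delta2-enoyl-CoA isomerase that lets unsaturated fatty acids enter the cycle, had the most negative difference of the members. It had 12.91, 12.67, 12.93, 12.50 and 12.81 in KO 1 to KO 5, against 12.85, 12.74, 12.98, 13.03 and 13.10 in WT 1 to WT 5. All KO values were below the WT mean, but WT 1 and WT 2 lay inside the KO range. The difference was -0.18 ± 0.095 (95% interval -0.38 to 0.03), or a change of -11.4% with an interval from -23.4% to 2.41%, and the adjusted p of limma was 0.914. It was -0.11 without KO 4 and -0.093 without WT 4 and WT 5.

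Etfdh, the inner membrane enzyme that passes electrons from fatty acid oxidation to ubiquinone, came next. It had 12.51, 12.56, 12.53, 12.47 and 12.63 in KO 1 to KO 5, against 12.53, 12.55, 12.77, 12.75 and 12.78 in WT 1 to WT 5. The WT arrays fell into a pair within the KO range and 3 arrays above every KO array. The difference was -0.14 ± 0.066 (95% interval -0.28 to 0.01), with an adjusted p of 0.914 from limma, and it was -0.077 without WT 4 and WT 5. A dim second probe set of Etfdh, at 4.90 on average, gave -0.12.

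Of the 16 member probe sets, 0 passed the adjusted threshold of 0.05 in limma's fit over all 34945 probe sets of 1 gene, where 0% passed, and 0 had an unadjusted p under 0.05. For 7 members (all but Acads, Eci1 and Etfdh) the 95% intervals of the KO minus WT change lay between -10.9% and 9.09%. These intervals are not adjusted over genes. The SD within groups was below the median of all genes (0.124) in 8 of 10 members. Bright probe sets vary less on this scale: the median SD was 0.050 over the 125 genes with a mean log2 signal of at least 13, which include 7 members, and 5 members lay below that value. The brightest probe set of each array read 14.51 to 14.65, so Hadhb and Hadh sat near the top of the scale, and whether large amounts are compressed there was not tested.

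**Figure D2:**
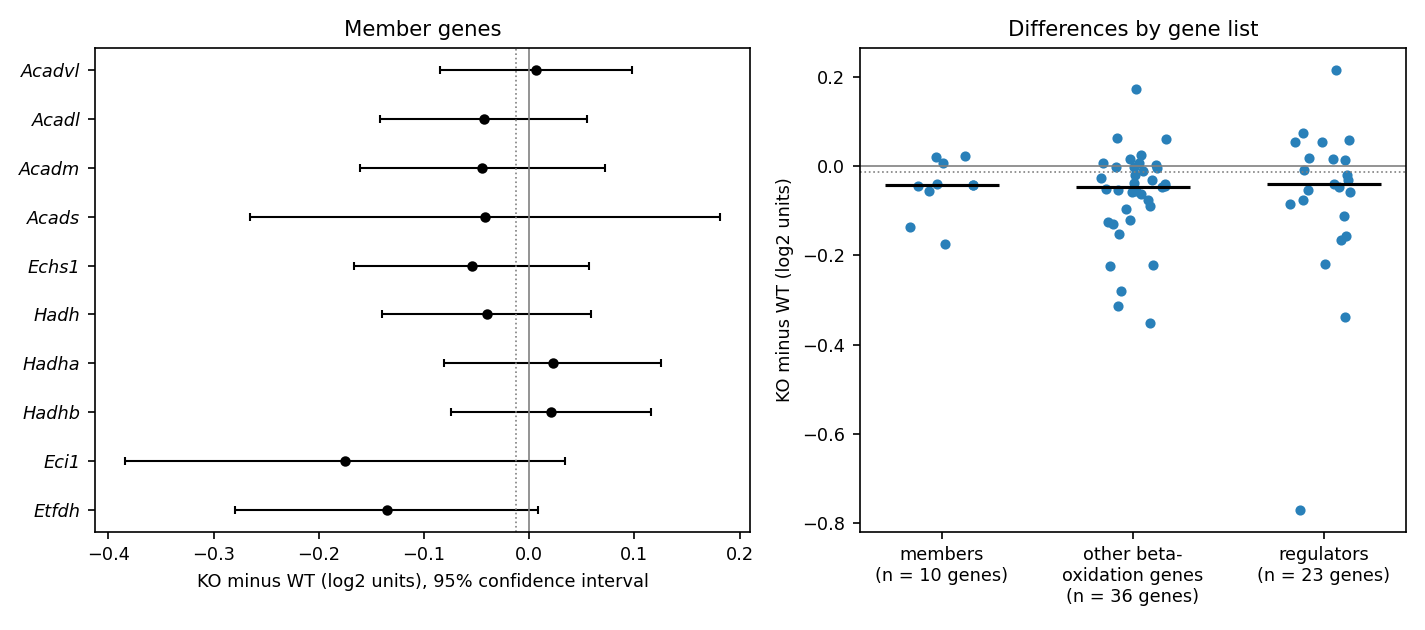
Left, KO minus WT difference in log2 units of each member gene with its 95% confidence interval from limma; right, the differences of the 10 members, 36 other beta-oxidation genes and 23 regulators, 1 point per gene, with the list median as a bar. Dotted lines mark the median of all genes, -0.013. All 10 intervals include 0, with Eci1 and Etfdh farthest to the left.

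The members' signals varied together over the arrays to different degrees. Of their 45 pairwise correlations over the 10 arrays 39 were positive, with a median Pearson r of 0.43. KO 4 was the lowest of all 10 arrays in 6 members and the lowest KO array in 8. Without KO 4 the median r of the 45 pairs was 0.28. The mean of 36 other beta-oxidation genes was also lowest in KO 4, at 10.42, against 10.50 to 10.62 in the other arrays. The share of all genes that are lowest in KO 4 is not given here, so these counts do not set the members apart. Eci1 varied with Acadl (r = 0.91, permutation p = 0.00034, adjusted over 45 pairs 0.011), with Acadm (r = 0.89, permutation p = 0.0005, adjusted 0.011) and with Echs1 (r = 0.85, permutation p = 0.0017, adjusted 0.025). Spearman's rho was 0.84 with Acadl (permutation p = 0.0037, adjusted 0.056), 0.89 with Acadm (permutation p = 0.0013, adjusted 0.030) and 0.89 with Echs1 (permutation p = 0.0011, adjusted 0.030). Leaving out KO 4 and WT 5, the arrays farthest from the median of Eci1, gave r of 0.74, 0.91 and 0.79. No other pair passed with either coefficient. RMA was run on all arrays together, and array-wide effects are shared by every pair.

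Acadvl, Hadha and Hadhb, the membrane-bound enzymes of long chains, correlated less with the other 7 members in most pairs, a grouping made after the values were seen. Acadl, which also acts on long chains but is soluble, is among the other 7. Among the other 7 the 21 pairwise r had a median of 0.66 and ran from 0.25 to 0.91. Between both groups the 21 pairwise r had a median of 0.10 and ran from -0.093 to 0.55 (Acads with Hadhb), which overlaps the range among the 7. The 3 pairs within the long-chain group ran from 0.31 to 0.51. Hadha and Hadhb, which share the start region printed above, had r = 0.43. These 3 genes also had small SD within groups, from 0.023 to 0.047, against 0.040 to 0.18 in the others. Acadl (0.040) and Hadh (0.041), which are among the other 7, varied less than Hadha (0.047). Whether spread plays a part in these correlations was not tested. After the group means were taken out, r between both groups of genes ran from -0.023 (Acadvl with Echs1) to 0.81 (Hadh with Hadhb). Among the 7 it then ran from 0.22 (Acads with Etfdh) to 0.89 (Eci1 with Acadm). Without KO 4 the ranges were -0.44 (Acadl with Hadha) to 0.56 (Acads with Hadhb) between both, and -0.23 (Acads with Etfdh) to 0.89 (Eci1 with Acadm) among the 7.

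**Figure D3:**
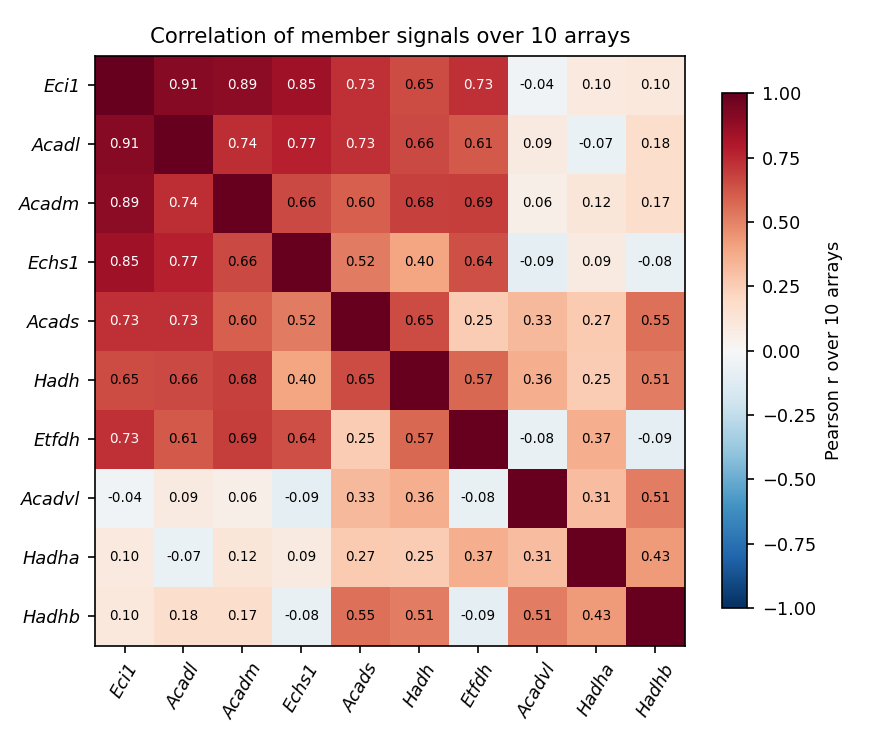
Pearson r over the 10 arrays for each pair of member genes, with Eci1 first and Acadvl, Hadha and Hadhb last; red is positive and blue negative. Eci1 has 0.91, 0.89 and 0.85 with Acadl, Acadm and Echs1, while the last 3 genes have values near 0 with Eci1 and Echs1.

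The signals of 8 of the 10 members correlated negatively with muscle transcript over the 10 arrays, and 0 passed the test. The share of all genes with a negative correlation is not given here, so this count does not set the members apart. Acads had r = -0.57 with the average of the 21 muscle genes (permutation p = 0.073, adjusted over 10 members 0.42; Spearman's rho -0.61, permutation p = 0.066, adjusted 0.32). Acadm had r = -0.54 (permutation p = 0.11, adjusted 0.42; rho -0.58, permutation p = 0.089, adjusted 0.32), and Eci1 had r = -0.52 (permutation p = 0.13, adjusted 0.42; rho -0.56, permutation p = 0.096, adjusted 0.32). Without KO 1 and KO 3, the arrays farthest from the median in muscle, these became -0.24, -0.70 and -0.67, and Etfdh went to -0.67, against 0.01 over all arrays (permutation p = 0.97, adjusted 0.97). Acadvl had r = 0.19 (permutation p = 0.61, adjusted 0.87; rho 0.067, permutation p = 0.86, adjusted 0.89), and 0.45 without those arrays. After the group means were taken out, r with muscle was -0.87 for Eci1, -0.75 for Acadm, -0.72 for Echs1, -0.70 for Acadl and -0.67 for Acads. It was -0.28 for Hadh, -0.27 for Etfdh, -0.18 for Hadhb, 0.049 for Hadha and 0.27 for Acadvl. In Hadhb, Hadha and Acadvl r was thus not more negative than over all arrays. These values within groups are a description and were not tested.

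With the muscle mean as a covariate the Eci1 difference was -0.27 ± 0.065 log2 units (95% interval -0.41 to -0.13), with an unadjusted p of 0.0018 and an adjusted p of 0.39 in limma. In that fit 8.82% of all genes had an unadjusted p under 0.05, against 4.68% without the covariate. Etfdh was at -0.15 ± 0.071 with the covariate, with an adjusted p of 0.57.

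**Figure D4:**
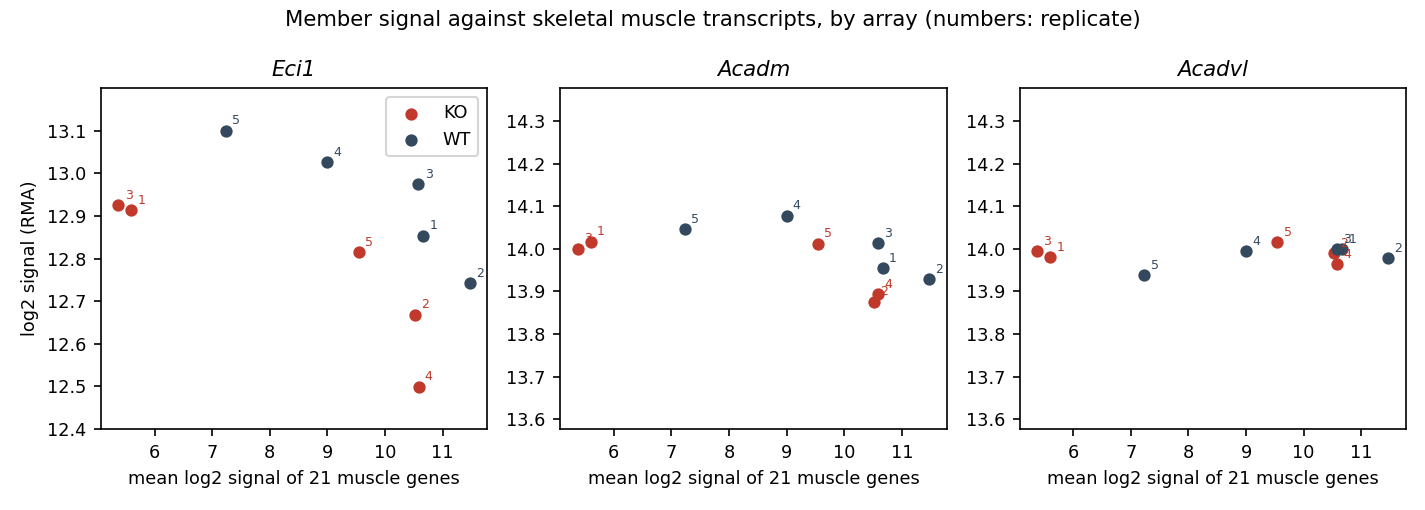
Log2 signal of Eci1, Acadm and Acadvl (vertical axes, same height in each panel) against the mean log2 signal of 21 skeletal muscle genes, 1 point per array, KO and WT in different colours with the replicate number. Eci1 and Acadm have r of -0.52 and -0.54 with muscle, neither past the test, and Acadvl has 0.19.

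Other genes of fatty acid activation, mitochondrial entry and oxidation gave no call either. Of 36 measured genes of 40 listed, 28 were lower and 8 higher in KO; the median was -0.046 log2 units, beside -0.013 over all genes. An unadjusted p under 0.05 was reached by 3 (8.33% of the list, beside 4.68% of all genes). Acsm3, a medium-chain acyl-CoA synthetase, had -0.35 ± 0.14 and lay from 9.52 to 10.21 in KO, against 9.84 to 10.53 in WT. Mcee, the methylmalonyl-CoA epimerase of odd-chain products, had -0.28 ± 0.12, and lay from 10.35 to 10.68 in KO, against 10.44 to 11.10 in WT. Acad12, an acyl-CoA dehydrogenase family member, was higher at 0.17 ± 0.075, from 8.04 to 8.36 in KO, against 7.87 to 8.11 in WT. Without WT 4 and WT 5, Acsm3 was at -0.25, Mcee at -0.11 and Acad12 at 0.11, with unadjusted p in limma of 0.13, 0.32 and 0.21. With the muscle covariate they were at -0.46, -0.40 and 0.16, with unadjusted p in limma of 0.0047, 0.00049 and 0.077. The adjusted p in that fit were 0.45, 0.38 and 0.58, and 8.82% of all genes had an unadjusted p under 0.05.

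The next by unadjusted p were Mlycd, malonyl-CoA decarboxylase, at -0.22 ± 0.11, Acad11 at -0.15 ± 0.076 and Acadsb, the short and branched chain enzyme, at -0.12 ± 0.079. Without WT 4 and WT 5 these were -0.099, -0.082 and -0.058. With the muscle covariate they were -0.28, -0.16 and -0.19, with unadjusted p in limma of 0.029, 0.083 and 0.011. Acad11 was at -0.22 with its probe set of highest SD and at -0.19 when every probe set was averaged. The unadjusted p of Acad11 in limma were then 0.018 and 0.023. Of the genes that act beside the members, Etfa, Etfb, Cpt2 and Acaa2 were named whatever their values, and their differences ran from -0.06 to 0.01. Etfa and Etfb, the subunits of the flavoprotein that hands electrons to Etfdh, had -0.06 ± 0.045 and -0.05 ± 0.048. Cpt2, the inner carnitine palmitoyltransferase, had -0.04 ± 0.063. Acaa2, the matrix thiolase, had 0.01 ± 0.044, turned to -0.0014 without KO 3 and was at 0.11 with its probe set of highest SD.

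Transcription factors and coactivators known to act on beta-oxidation genes did not pass either. Of 23 measured of 24 listed, 15 were lower and 8 higher, with a median of -0.039 log2 units and 1 unadjusted p under 0.05. This is 4.35% of the list, beside 4.68% of all genes, so the count does not set the regulators apart. That gene was Rxra, the partner of PPAR receptors in DNA binding. It had 8.17, 8.33, 7.996, 8.16 and 8.03 in KO 1 to KO 5, against 8.38, 8.25, 8.33, 8.52 and 8.30 in WT 1 to WT 5, a difference of -0.22 ± 0.074 with an adjusted p of 0.914. Only KO 2 reached into the WT range. Rxra was at -0.068 when every probe set was averaged and at -0.043 with its probe set of highest SD, with unadjusted p of 0.26 and 0.71 in limma.

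Ppara, the receptor known for driving fatty acid oxidation genes, had 0.05 ± 0.11, and its sign turned without KO 5 (-0.023). The coactivator Ppargc1a had -0.09 ± 0.19, which turned to 0.093 without WT 5, and Esrra, an orphan receptor, had -0.11 ± 0.10. Klf15 had the widest difference of the list, -0.77 ± 0.44, through WT 4 and WT 5 at 10.18 and 9.86, against 7.60 to 8.63 in KO and 7.82 to 8.45 in the other WT arrays, and without those 2 arrays it was 0.013. Ppard had -0.17 ± 0.083, Thra, a thyroid hormone receptor, -0.16 ± 0.092, and Pprc1, a relative of Ppargc1a, 0.21 ± 0.13. Without WT 4 and WT 5, Ppard was at -0.036 and Esrra at -0.039, while Thra was at -0.22, Pprc1 at 0.21 and Rxra at -0.18.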

How the data were processed

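Per the submitters' processing notes, the authors made the deposited log2 signals with RMA; which software and settings were used is not given in the sources used. Of 45101 probe sets, 34945 had 1 gene in the platform annotation, 34741 of which matched RefSeq (GRCm38.p6) by gene ID and took its symbol. The probe set with the highest mean was kept per gene, leaving 18193 genes. Groups came from sample titles. KO minus WT differences came from limma (version 3.58.1, R 4.3.3), using lmFit, eBayes and two-sided tests with Benjamini-Hochberg adjustment over all genes, threshold 0.05. Errors beside differences are standard errors. The eBayes step draws the variance of each gene toward that of all genes. Standard errors, intervals and p-values thus do not rest on the spread between these mice alone. When that variance could follow the signal, the SE was 0.025 for Acadvl, against 0.041 in the main fit, and 0.028 for Hadhb, against 0.043. Correlations used 100000 permutations. In simulated data for this comparison (18193 genes) 80% of 100 genes changed by 0.5 log2 units and 98% of 100 changed by 1 were called, with 8 false calls. The simulated noise was drawn separately for each gene, without variation shared between genes such as that of muscle transcript. No change below 0.5 was simulated. The shares called therefore need not hold for the real arrays, and they say nothing about changes of the size seen in the members.

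Members and lists were chosen with earlier results of these data known. Named genes are the members, Sirt3, Ucp1, the 6 genes per list with the smallest unadjusted p, a few fixed genes, and the 6 genes most alike in pattern. Some listed genes are not analysed here. The number of arrays limits the precision. Alternatives covered normalization, a filter on dim genes, choice of probe set, variance model, array weights, replicate block, muscle covariate and arrays left out.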

Additional observations from a re-analysis of the deposited data

Results flagged for a closer look

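Hadh in WT 3, at 14.30, stood above the other 4 WT arrays, which lay between 14.25 and 14.26; the gap was 79.1% of the range of the group. This was the 1 group flagged among 24 examined (10 members, Sirt3 and Hadha minus Hadhb, KO and WT each), and chance flags about 1 in 20. The flag rests on the brightest probe set of Hadh. In the second, WT 3 was at 13.66, below WT 5 at 13.68, and in the dimmest at 7.96, below WT 1 at 7.99.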

How the results depend on the processing

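Under all 23 alternatives 0 member genes, 0 other beta-oxidation genes and 0 regulators passed an adjusted p of 0.05, and 0 member probe sets passed under the 14 alternatives run for them. The lowest adjusted p of any member was 0.39, for Eci1 with the muscle covariate. The median member difference stayed between -0.070 and -0.025. Of 809 alternative values, 20 turned sign. With the probe set of highest SD, Hadh was 0.046, Ppargc1a 0.24, Cpt2 0.032 and Hadha minus Hadhb -0.15, and averaging every probe set of a gene Hadha minus Hadhb was -0.057. Without WT 4 and WT 5, Acadvl was -0.0038, Klf15 0.013, Ppargc1a 0.13 and Cpt2 0.00012. Without WT 5, KO 1 and KO 3, Acadvl was -0.0036, Ppargc1a 0.054 and Acaa2 -0.0013. Leaving out each array in turn gave ranges of -0.0044 to 0.013 for Acadvl, -0.096 to 0.056 for Acads, -0.057 to -0.025 for Acadl, -0.063 to -0.023 for Acadm, 0.0020 to 0.042 for Hadha, 0.0076 to 0.031 for Hadhb, -0.22 to -0.11 for Eci1, -0.17 to -0.11 for Etfdh, -0.023 to 0.12 for Ppara, -0.17 to 0.093 for Ppargc1a, -0.17 to -0.053 for Esrra, -0.0014 to 0.026 for Acaa2 and -0.019 to 0.020 for Hadha minus Hadhb. The cause was not tested. The replicate block left the differences as they were (Eci1 -0.18, median member difference -0.042, Hadha minus Hadhb 0.0019) with 0 members called and 736 genes at an unadjusted p under 0.05, against 851 without it (1418 when WT 2 was left out and 1604 with the muscle covariate). Deviations of same-numbered arrays from their group means over all genes correlated at -0.40 to 0.24. Such values cannot show whether the numbers pair the mice, by litter for example. Hadha minus Hadhb was not run with the muscle covariate or with settings of limma that leave its value as it is. Names that end in _a_at, _s_at or _x_at are marks of the array maker for probe sets that match, or may match, more than 1 transcript. Leaving these out gave no value for Sirt3. The Hadh probe set used here ends in _x_at, and without such names Hadh was at -0.018.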

Other observations

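Among 7750 non-member genes with a mean log2 signal above 7, the 6 whose signals were most like the mean of the standardized members over the 10 arrays were Gmppa (Pearson r 0.93), Prepl (0.93), Hibch (0.92), Mrpl39 (0.90), Dhrs4 (0.90) and Clec2d (0.89). Gmppa encodes a subunit of GDP-mannose pyrophosphorylase, Hibch an enzyme of valine breakdown and Mrpl39 a mitochondrial ribosomal protein. They were picked as the highest of all genes searched, so r is given as a description without a test, and without KO 4 it lay between 0.76 (Dhrs4) and 0.88 (Gmppa). Their KO minus WT differences ran from -0.15 (Clec2d) to -0.016 (Prepl), and 0 passed.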
